A study of Mus musculus with 2 samples.

Results

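Matrix metalloproteinases (Mmp genes), the ADAMTS proteases (Adamts genes) and their tissue inhibitors (Timp genes) were compared between wild-type mouse ear and ear of double knockouts null for Myf5 and Myod1, called double mutant here. Members were the probe sets of the array that its annotation pairs with 1 gene whose symbol is Mmp, Adamts or Timp followed by a number and an optional letter, with the probe set of highest mean linear signal kept for each gene. This gave 44 of 19938 named genes, comprising 22 Mmp, 18 Adamts and 4 Timp genes on 68 probe sets. Adamts2 and Mmp15 were not analysed here.

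The wild-type array held total RNA of BALB/c fetal ear at E18.5, and the double-mutant array held the same tissue and age from BALB/c fetuses null for Myf5 and Myod1. Each group was 1 array, so the differences have no replicate check, and 1 array a group limits how precisely any of them is known. The labels leave the dissected part of the ear, and any pooling of animals, unstated. The design asks how the ear's transcripts differ when skeletal muscle fails to form.

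Metalloproteinases of the MMP family are zinc enzymes that cut collagens and other matrix proteins. They are made as inactive precursors, and some are anchored in the cell membrane. ADAMTS proteases are secreted relatives that bind the matrix through thrombospondin repeats; several cut the large proteoglycans of cartilage and loose connective tissue, others trim procollagens. The TIMPs are small secreted proteins that block the active site of these enzymes. In developing skeletal tissue these genes serve the removal of cartilage, the invasion of vessels and the shaping of bone.

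Muscle genes set the arrays apart. All 15 skeletal muscle markers were past 2-fold lower in the double mutant, with a median log2 difference of -5.25, 8 of them at the floor there. Myod1 read 6.95 in wild-type and 6.38 in double-mutant ear, and Myf5 read 5.94 and 5.25; the sources used here do not place these probe sets inside or outside the deleted parts. Of 14 inner ear markers 13 were above the floor, with a median of 0.00. The floor was each array's median over all probe sets, 5.65 in wild-type and 5.70 in double-mutant ear, and values under it were raised to it before a difference (double mutant minus wild type, in log2) was taken.

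None of the protease and inhibitor genes passed 2-fold. Of the 44 members 29 exceeded the floor in 1 genotype or both, and 0 of these 29 were at least 2-fold lower and 0 at least 2-fold higher, where 1.71% and 0.482% of the 12458 genes above the floor were, so counts of 0 are near the share of all genes. The largest difference was that of Timp1, 1.56-fold lower in the double mutant and the 1 member past 1.5-fold in either direction. Among all genes the shares past 1.5-fold were 3.62% in the lower and 2.25% in the higher direction. The members' median was -0.07 beside -0.01 over all genes, and 17 of 29 were below 0, beside 50.8% of all genes. Their differences had a standard deviation of 0.230 over the 28 members above the floor on both arrays, smaller than the 0.344 of all such genes and the 0.294 of such genes without the muscle genes. For a scale of probe noise, probe sets of 1 gene differed from one another with a standard deviation of 0.168 over 619 genes, and 15 of the 28 members lay within that distance of 0. This measures probes on the same RNA and not the spread between animals.

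**Figure D1:**
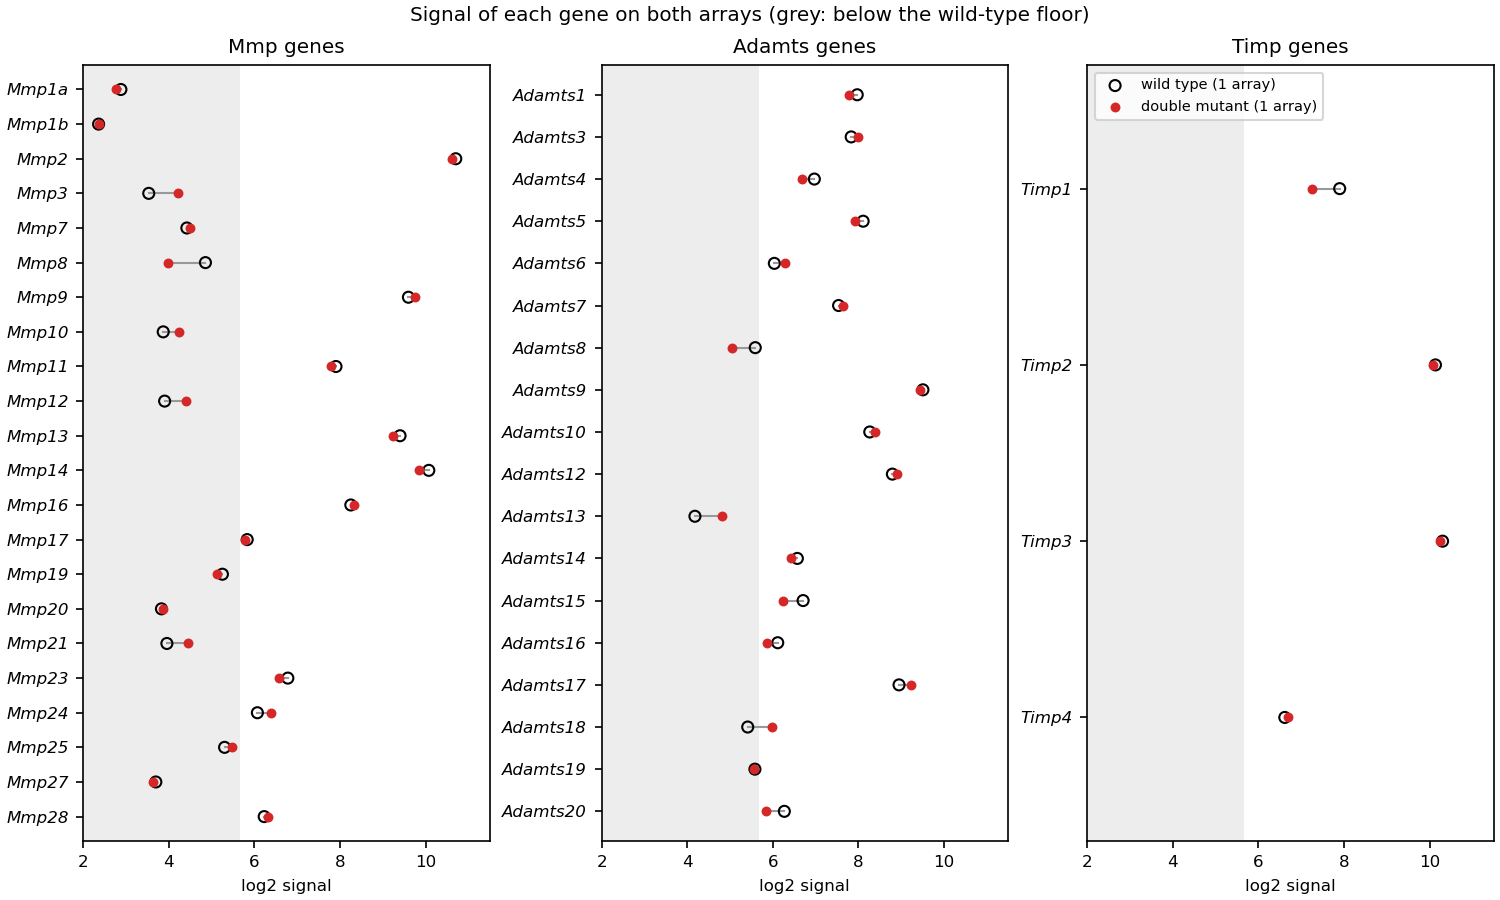
Log2 signal of each of the 44 genes on the wild-type array (open circles) and the double-mutant array (red points), with 1 panel per family and grey shading below the wild-type floor of 5.65. Timp1 shows the widest gap among genes outside the shading, and 15 genes lie below the floor on both arrays.

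Not all members could be measured: 65.9% exceeded the floor in 1 genotype or both, beside 62.5% of all named genes. Of the 22 Mmp genes, 10 were above the floor on both arrays and 12 were below it on both. A block of 10 Mmp genes lies side by side on mouse chromosome 9 with 0 other protein-coding genes between them in RefSeq, in the order Mmp13, Mmp12, Mmp1b, Mmp3, Mmp1a, Mmp10, Mmp8, Mmp27, Mmp20 and Mmp7. Within this block 1 gene, Mmp13, was above the floor, in both genotypes. Most promoters of the block hold a short motif near the start of transcription, TGANTCA, searched here as a loose form of the AP-1 element. Fos and Jun dimers bind that element, for which collagenase and stromelysin promoters are textbook examples. The middle base N was left free, and it is A in the Mmp20 match and G or C in the other matches shown. The following stretches upstream of the start (RefSeq, GRCm38.p6, 5′ to 3′ on the gene's strand) are shown because Mmp13 and these unmeasured neighbours each carry a match. Mmp8 and Mmp27 of the block carry none. Capitals mark AP-1 matches and, in Mmp13, also 1 match to the Runx motif TGTGGT, which reads ACCACA on the opposite strand. The stretch of Mmp13 is 250 bases and the others are 120 bases.
Mmp13, chr9:7272264-7272513, plus strand: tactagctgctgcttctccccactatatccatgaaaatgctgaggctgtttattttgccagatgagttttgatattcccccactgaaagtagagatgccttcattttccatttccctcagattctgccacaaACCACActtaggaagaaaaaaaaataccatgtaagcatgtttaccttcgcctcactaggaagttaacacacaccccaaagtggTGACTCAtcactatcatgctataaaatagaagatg
Mmp3, chr9:7445702-7445821, plus strand: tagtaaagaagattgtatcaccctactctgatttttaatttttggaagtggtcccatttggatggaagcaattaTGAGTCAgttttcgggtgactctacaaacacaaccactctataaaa
Mmp10, chr9:7502222-7502341, plus strand: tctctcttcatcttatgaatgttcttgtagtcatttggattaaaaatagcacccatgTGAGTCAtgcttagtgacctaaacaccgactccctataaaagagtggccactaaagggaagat
Mmp1a, chr9:7464021-7464140, plus strand: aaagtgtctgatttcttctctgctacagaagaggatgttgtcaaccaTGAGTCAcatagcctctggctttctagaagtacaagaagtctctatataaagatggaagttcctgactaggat
Mmp1b, chr9:7388027-7388146, minus strand: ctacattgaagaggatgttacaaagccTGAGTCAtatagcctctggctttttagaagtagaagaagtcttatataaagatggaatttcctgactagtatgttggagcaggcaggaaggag
Mmp20, chr9:7628111-7628230, plus strand: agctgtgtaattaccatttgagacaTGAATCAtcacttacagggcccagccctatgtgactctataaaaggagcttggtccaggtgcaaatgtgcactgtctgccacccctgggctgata

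Motifs were searched on both strands in the 250 bases upstream of each RefSeq start, and 30 of the 44 members matched a promoter in that table. The AP-1 motif occurred in 8 of the 10 genes of the chromosome 9 block, namely the 6 above together with Mmp12 and Mmp7 (each at 1 of 2 starts), and in 0 of the other 20 members with a promoter. Among all 27025 genes with a promoter 7.82% held it, and among single promoters 6.75%. So the motif lay in 1 of 18 matched members above the floor and in 7 of 12 below it. The first base of the match was 35 bases before the start in Mmp13, 46 in Mmp3, 63 in Mmp10, 73 in Mmp1a, 93 in Mmp1b and 95 in Mmp20. The Runx motif occurred in 6 of the 30 members, beside 15.9% of all genes, and in 4 of the 10 of the block. The E-box CAGCTG, of the kind that myogenic factors bind, occurred in 6 of the 30 members, beside 14.7% of all genes. None of the 3 motifs contains another. A match describes the letters of the window and is not a binding site.

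Among the collagenases, which cut fibrillar collagen, Mmp13 read 9.40 in wild-type and 9.24 in double-mutant ear, a difference of -0.17. Mmp13 is made by hypertrophic chondrocytes and osteoblasts. Mmp8, the collagenase of neutrophils, read 4.85 and 3.98, and both values are below the floor, so no fold is given. Mmp1a read 2.88 and 2.76, and Mmp1b read 2.36 on both arrays. Col10a1, the collagen of hypertrophic cartilage and a marker of the same cells, was 2.14-fold lower in the double mutant, while the other 5 hypertrophic cartilage markers above the floor differed by 0.24 or less, the value of Ibsp. The summed linear signal of that list was 2742 in wild-type and 2976 in double-mutant ear. Its brightest genes, Ibsp, at 10.47 and 10.72, and Alpl, are also on the osteoblast list, so the sum is not particular to hypertrophic cartilage. The part of these cells in the Mmp13 value was not tested.

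The gelatinases, which cut denatured collagen and basement membrane, were both bright. Mmp2, a product of mesenchymal cells, read 10.71 in wild-type and 10.63 in double-mutant ear, a difference of -0.08. Mmp9, abundant in osteoclasts, read 9.60 and 9.75, a difference of 0.15. Osteoclast markers gave a median of -0.01 over 8 genes above the floor of 10, with Ctsk at 9.98 and 9.97 and Acp5 at 9.32 and 9.33. Their summed linear signal was 2485 in wild-type and 2421 in double-mutant ear. In bulk tissue fewer cells of a type and less RNA per cell cannot be told apart.

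Of the stromelysins, Mmp11 read 7.91 in wild-type and 7.79 in double-mutant ear, a difference of -0.12, and Mmp3 and Mmp10 were below the floor on both arrays. Mmp7, the matrilysin of glandular epithelia, and Mmp12, the elastase of macrophages, were likewise below it. Salivary gland genes were far higher on the double-mutant array: of 8 such markers 7 were at least 2-fold higher there, beside 0.482% of all genes. These 7 were at the floor in the wild type, so the filter fixed their direction and their folds are bounds. The summed linear signal of the 8 markers, taken without the floor, was 207 in wild-type and 10805 in double-mutant ear. Mmp7 itself read 4.42 and 4.48. Macrophage markers were above the floor for 9 of 10 genes, while Mmp12 read 3.90 and 4.40.

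Membrane-type metalloproteinases act at the cell surface, and Mmp14, their best known member, activates the precursor of Mmp2. Mmp14 read 10.08 in wild-type and 9.86 in double-mutant ear, a difference of -0.22. Mmp16 read 8.25 and 8.32, a difference of 0.06. Mmp17, anchored by a lipid, lay close to the floor with 5.83 and 5.78. Mmp25, also of the membrane type, was below the floor on both arrays, at 5.30 and 5.49. Mmp24, which is known for its expression in the nervous system, read 6.07 and 6.39, 1.25-fold higher in the double mutant and the furthest of the Mmp genes in that direction. Of the 1163 genes of like signal, the second lowest of 10 equal groups by mean log2 signal, 133 lay as high or higher. Brain markers moved in the same direction: all 7 with a named probe set were above 0, 5 of them at least 2-fold higher. For 4 of the 7, at the floor in the wild type, the filter fixed this direction. The other 3 were above the floor on both arrays. The summed linear signal of the 7 markers, taken without the floor, was 433 in wild-type and 1064 in double-mutant ear. Their part in the Mmp24 value was not tested. Mmp24 also overlaps another gene in RefSeq, BC029722, which differed by -0.07.

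The remaining Mmp genes have less settled roles. Mmp23 read 6.78 in wild-type and 6.58 in double-mutant ear, a difference of -0.20, and overlaps Mib2 in RefSeq, which differed by 0.08. Mmp28, made in epidermis, read 6.23 and 6.31. Mmp19, Mmp21 and Mmp27 were below the floor on both arrays. Mmp20 cuts the enamel matrix of teeth and was also below the floor, at 3.83 and 3.87, as were all 6 genes of the enamel organ list.

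**Figure D2:**
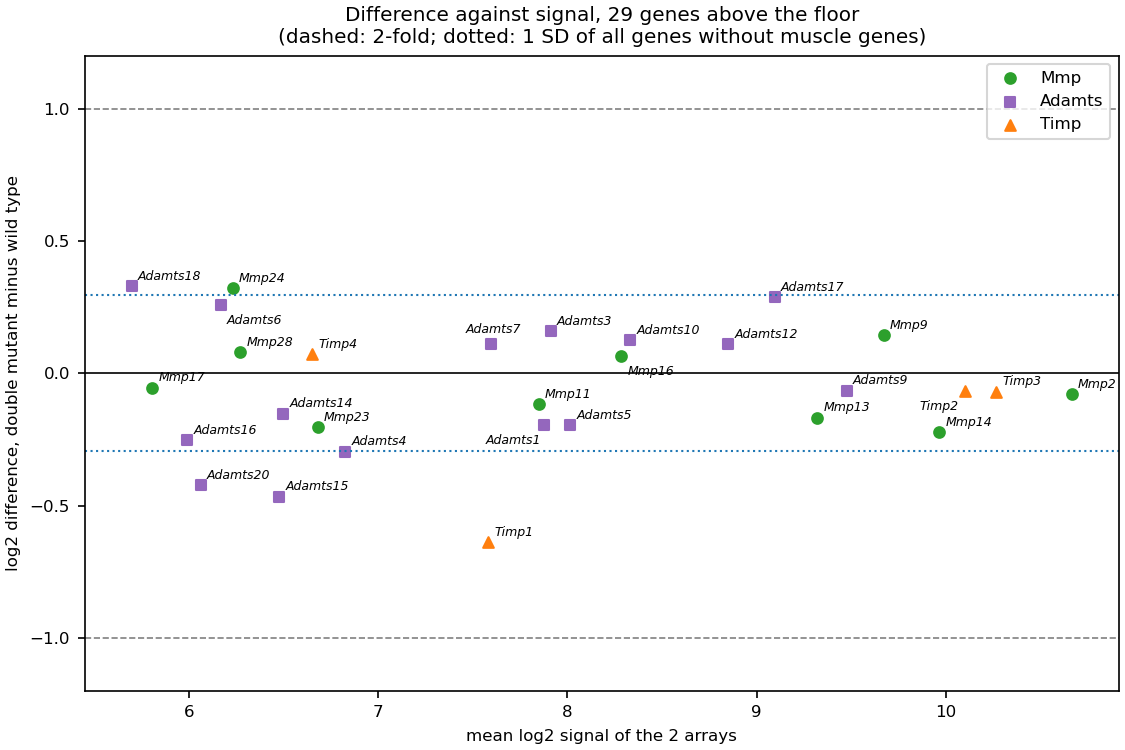
Log2 difference (double mutant minus wild type) against the mean log2 signal of both arrays for the 29 genes that exceed the floor in 1 genotype or both, with Adamts18 taken at its bound. No gene reaches the dashed 2-fold lines, and Timp1, Adamts15 and Adamts20 lie furthest below 0.

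Among the Adamts genes 15 of 18 exceeded the floor in 1 genotype or both, 8 of them below 0 and 7 above 0. The proteases that cut aggrecan, versican and related proteoglycans were on the same side of 0 on their kept probe sets. All 6 of their members above the floor were below 0, beside 50.8% of all genes, though the probe sets of Adamts9 lay on both sides. Their median was -0.25 and their range -0.47 to -0.07, beside a median of -0.01 over all genes. The signs held under each of 5 other scalings, but these shift genes of like signal together and so test a sign little. Of the 6, 0 passed 2-fold, where 1.71% of all genes did in this direction. Adamts15 read 6.71 in wild-type and 6.24 in double-mutant ear, 1.38-fold lower. Adamts20, known for its part in the migration of pigment cell precursors, read 6.27 and 5.85, 1.34-fold lower. Adamts4, an aggrecanase, read 6.97 and 6.68, 1.23-fold lower. On both arrays these 3 genes read below the 75th percentile, 7.37 in wild-type and 7.35 in double-mutant ear. Of genes of like signal, 59 of 1162 lay as low as Adamts15 or lower, 20 of 1163 as low as Adamts20 and 127 of 1163 as low as Adamts4. With a pseudocount and no floor the difference was -0.28 for Adamts15 and -0.22 for Adamts20. Macrophage, smooth muscle and tendon and fibroblast markers, given with Timp1, had medians of -0.32, -0.42 and -0.45 on the same arrays. Skeletal muscle and neutrophil markers were further below 0, with medians of -5.25 and -0.94. The remaining lists were nearer 0 or higher. Chondrocyte markers had a median of -0.04 over 9 genes above the floor, 5 below 0 and 4 above. Osteoblast, endothelial, keratinocyte and adipocyte markers had medians of 0.05, -0.13, 0.05 and 0.73. The part of any of these cells in this group's values was not tested.

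The other members of the group differed by 0.20 or less. Adamts1, which cuts versican, read 7.97 in wild-type and 7.78 in double-mutant ear. Adamts5, the main aggrecanase of mouse cartilage, read 8.11 and 7.92, and both genes differed by -0.20. They are direct neighbours on chromosome 16. Adamts9 read 9.51 and 9.44, a difference of -0.07, and its 6 probe sets ran from -0.10 to 0.08, 3 on each side of 0. Adamts8, the neighbour of Adamts15 on chromosome 9, was below the floor on both arrays, at 5.59 and 5.04. Their substrates did not share 1 direction: Vcan (versican) differed by -0.23 and Acan (aggrecan) by 0.05, while Ncan (neurocan) and Bcan (brevican), proteoglycans of the nervous system, were 2.21-fold and 1.92-fold higher. Vcan, Acan and Bcan were named after their values were seen.

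Procollagen N-proteinases remove the amino-terminal propeptide of fibrillar procollagens. Adamts14 read 6.57 in wild-type and 6.42 in double-mutant ear, a difference of -0.15. Adamts3 read 7.83 and 7.99 on its brightest probe set, a difference of 0.16. Adamts3 is the member measured most often, with 16 probe sets. All 16 were higher in the double mutant, by 0.13 to 0.53 with a median of 0.24, and the 12 above the floor on both arrays ranged from 0.16 to 0.40. These probe sets read the same 2 RNA samples, so their shared direction speaks for the measurement on these arrays and says nothing of the spread between animals. Their signals in the wild type ran from 4.67 to 7.83 for this 1 gene, which shows why levels are not compared between genes here.

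**Figure D3:**
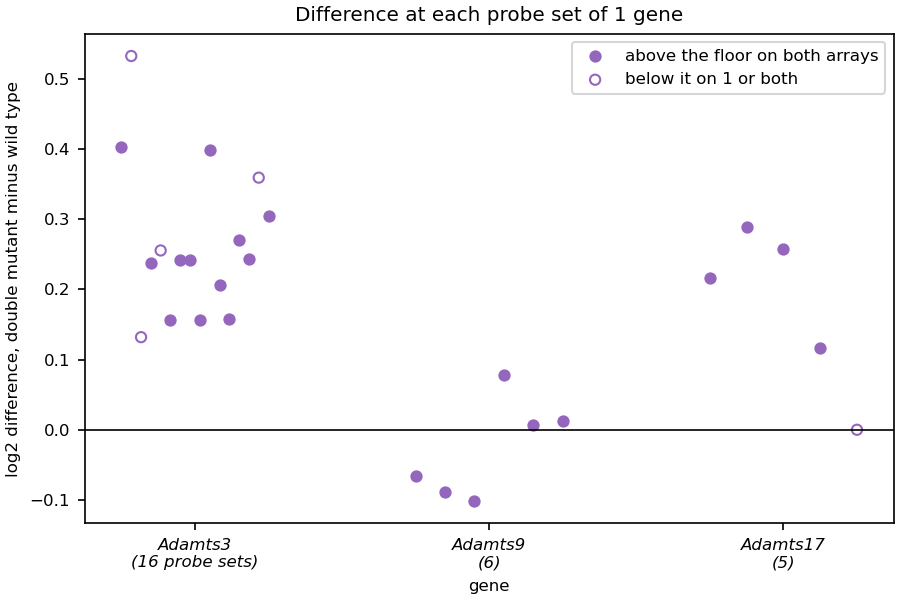
Log2 difference (double mutant minus wild type) at each probe set of the 3 genes with more than 1, filled where above the floor on both arrays. All 16 probe sets of Adamts3 lie above 0, those of Adamts9 lie on both sides, and 4 of the 5 of Adamts17 lie above 0 with the other at 0.

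The proteases that cut cartilage oligomeric matrix protein differed little. Adamts7 read 7.54 in wild-type and 7.65 in double-mutant ear, and Adamts12 read 8.80 and 8.91. Each differed by 0.11, which is less than the spread among probe sets of 1 gene. Comp, their substrate, named after its values were seen, read 6.00 in the wild type and 5.65, at the floor, in the double mutant, at least 1.23-fold lower.

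Of the other Adamts genes 4 were above the floor on both arrays, 3 with a difference above 0 and 1 below. Adamts17 read 8.95 in wild-type and 9.24 in double-mutant ear, 1.22-fold higher, and its 4 probe sets above the floor ran from 0.12 to 0.29. Adamts10, which binds fibrillin microfibrils, read 8.27 and 8.39, a difference of 0.13. Adamts17 and Adamts10 are both genes in which mutations cause short stature with lens defects. Adamts6, a relative of Adamts10, read 6.04 and 6.29, a difference of 0.26. Adamts18 read 5.41, below the floor, and 5.98, at least 1.26-fold higher. Adamts16 went the other way, with 6.12 and 5.86, a difference of -0.25. Adamts13, which cuts von Willebrand factor and is made mainly in liver, and Adamts19 were below the floor on both arrays.

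All 4 inhibitors were measured on both arrays, and 1 differed by more than the others. Timp1, an inhibitor induced by growth factors and cytokines, read 7.90 in wild-type and 7.26 in double-mutant ear. Its difference of -0.64 was the largest of the 29 members; 37 of 1163 genes of like signal lay as low or lower. Under the 5 other scalings it ran from -0.68 to -0.61, but with the floor at the 75th percentile it was -0.55 and with a pseudocount and no floor -0.49, both within 1.5-fold. Timp2, which takes part with Mmp14 in the activation of Mmp2, read 10.14 and 10.07; it overlaps Cep295nl in RefSeq, which read 5.57 and 5.84. Timp3, which is held in the matrix and inhibits ADAMTS proteases as well, read 10.30 and 10.23, and both genes differed by -0.07. Timp4 read 6.62 and 6.69, a difference of 0.07.

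In RefSeq 3 of these inhibitor genes lie inside synapsin genes, which encode proteins of synaptic vesicles: Timp1 inside Syn1, Timp3 inside Syn3 and Timp4 inside Syn2. The synapsins were higher in the double mutant, by 0.34 for Syn1, 0.56 for Syn3 and 0.16 for Syn2. Brain markers, described with Mmp24, were higher on the same array by a median of 1.17, and their part in the synapsin values was not tested. Host and inhibitor thus differed in opposite directions for Timp1. Timp3 differed by -0.07, less than the spread of 0.168 among probe sets of 1 gene, so no direction is read for it. The sources used here do not say if the probe sets tell the strands apart.

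Several cell type lists were lower on the same array as Timp1. Chondrocyte, osteoblast, endothelial, keratinocyte and adipocyte lists, given with the proteoglycan-cleaving proteases, were nearer 0 or higher. Skeletal muscle markers were the lowest, with a median of -5.25 and a summed linear signal of 34426 in wild-type and 662 in double-mutant ear. Of all genes, 50.8% were below 0 and 1.71% at least 2-fold lower. Macrophage markers had a median of -0.32 with 9 of 9 genes below 0, and a summed linear signal of 2112 in wild-type and 1690 in double-mutant ear. Of 9 neutrophil markers 4 exceeded the floor in 1 genotype or both, with a median of -0.94. Ngp and Ltf were at the floor in the double mutant, so the filter fixed their direction and their folds are bounds. Ngp was at least 2.90-fold lower and Ltf at least 1.16-fold. Lcn2 and S100a9, above the floor on both arrays, were 2.30-fold and 1.59-fold lower. S100a8, Camp, Elane, Mpo and Cxcr2 were below the floor on both arrays. The summed signal of this list was 669 and 373. Tendon and fibroblast markers had a median of -0.45 with 9 of 10 below 0 and sums of 11874 and 9051. Within this list 3 genes, Thbs4, Kera and Tnmd, were at least 2-fold lower, at -2.88, -1.33 and -1.18. Its brightest genes, Postn, Dcn and Lum, differed by -0.49, -0.14 and -0.20, and Pdgfra by 0.01. Ltf, Kera, Tnmd and Pdgfra were named with their values known. Smooth muscle markers had a median of -0.42 with 7 of 8 below 0 and sums of 3625 and 2313. The part of these cells in the Timp1 value was not tested.

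The wider set of genes around these proteases was set beside all genes, of which 50.8% were below 0 on the deposited scale, 1.71% at least 2-fold lower and 0.482% higher. Of 18 other inhibitors and activators above the floor 0 passed 2-fold in either direction and 12 were below 0, with a median of -0.18. Pcolce, which enhances procollagen processing, read 10.80 in wild-type and 10.53 in double-mutant ear. Reck, a membrane-bound inhibitor of MMPs, differed by -0.17 and Bsg, an inducer of MMPs, by 0.04. Of 6 ADAMTS-like proteins, which lack the protease domain, 0 passed 2-fold and 4 were below 0, with a median of -0.15. Adamtsl4 differed by -0.45, Adamtsl1 by 0.22 and Thsd4 by -0.07.

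Other metalloproteinases that act on matrix or shed surface proteins had a median of -0.12, with 0 of 18 past 2-fold and 14 below 0. Bmp1, the procollagen C-proteinase, read 9.79 in wild-type and 9.81 in double-mutant ear, Anpep differed by -0.46 and Mme (neprilysin) by 0.17. Of 24 matrix substrates 19 were below 0, with a median of -0.21; Col10a1 was at least 2-fold lower and Ncan at least 2-fold higher. The brightest, Col1a1, Bgn and Dcn, differed by -0.10, -0.10 and -0.14. Transcription factors known to act on Mmp promoters had a median of -0.16 over 10 genes above the floor, with 0 past 2-fold and 8 below 0. Of the AP-1 subunits Jun read 8.68 and 8.24, a difference of -0.44, and Jund 8.53 and 7.87, a difference of -0.67. Fosb read 6.26 and 5.43, below the floor in the double mutant and at least 1.48-fold lower, and Fosl2 differed by 0.02. Fos, Fosl1 and Junb were below the floor on both arrays. The AP-1 subunits other than Jun were chosen with their values known. Ets2 differed by -0.12 and Cbfb, the partner of Runx factors, by -0.18. Runx1 differed by -0.15 and Runx3 by 0.00, both named with their values known, and Runx2 had no named probe set.

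**Figure D4:**
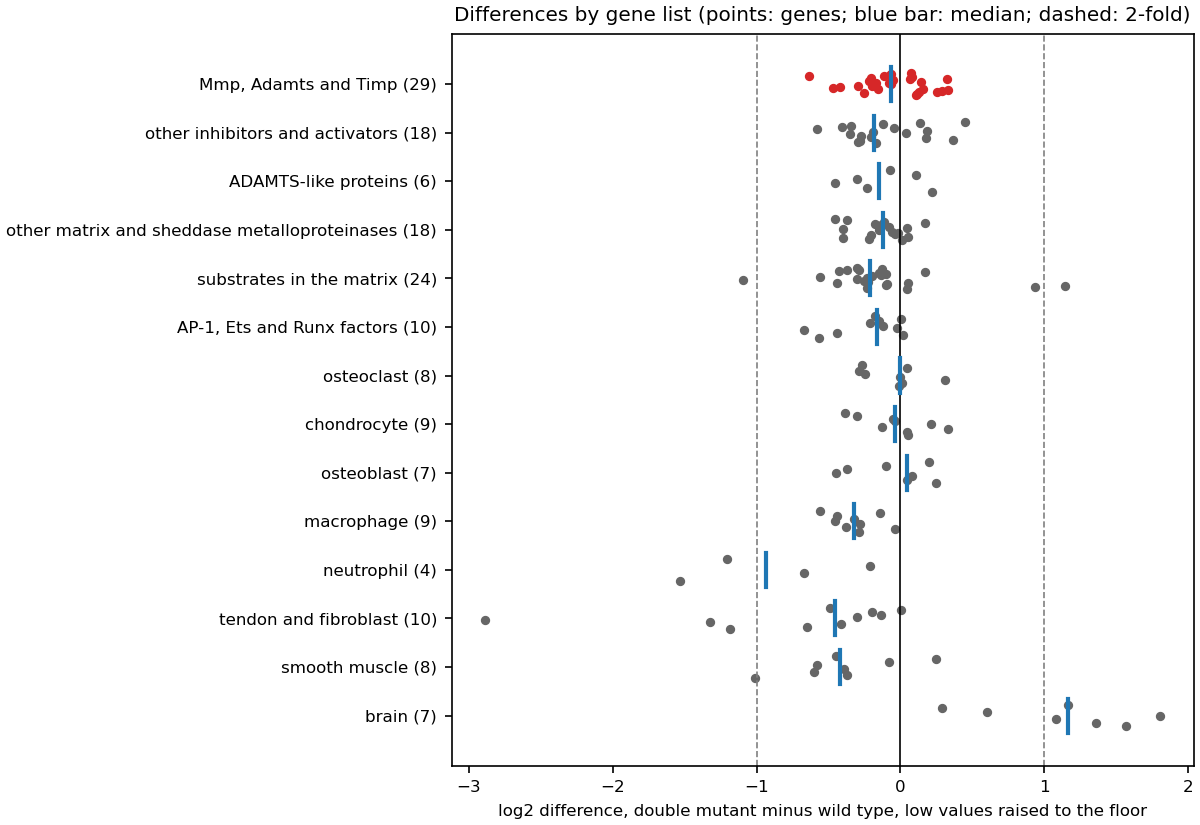
Log2 differences (double mutant minus wild type, low values raised to the floor) of the genes above the floor in each list, with the number of genes in brackets and the median as a blue bar. The 29 protease and inhibitor genes lie between -0.64 and 0.33, while the neutrophil list has a median of -0.94 and the brain list one of 1.17.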

How the data were processed

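The authors' deposited values are log2 signals of 35557 probe sets on 2 arrays. No source states the log base, which was inferred from their span, 0.75 to 13.27. The submitters' processing notes name MAS5, a method that reads mismatch probes; arrays of this whole-transcript kind lack them, so how the signals were made stays unsettled. Its version and any background correction, normalization or build were not given in the sources used here. No rescaling was applied. Per the labels' protocols, 6 µg of total RNA went into each biotinylated cRNA. The platform's annotation paired 21789 probe sets with 1 gene, 1621 with several and 12147 with none; all 44 member symbols matched RefSeq by Entrez identifier.

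The floor was each array's 50th percentile, and folds against a floored side are bounds. With 1 array per group no test or p-value was possible: genes were counted at 2-fold. Members and lists were chosen with earlier results of these data known. Every member was named, as were the 3 brightest genes of each pathway list and its largest difference past 2-fold in each direction; other genes serve as context. Promoters came from RefSeq (GRCm38.p6). Alternatives were 5 scalings, 4 treatments of low values, medians over the probe sets of a gene, and 1.5-fold or 3-fold in place of 2-fold. The calculation was tested on simulated data. Python 3.11.15, pandas 2.3.3 and statsmodels 0.14.6 were used.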

Additional observations from a re-analysis of the deposited data

How the results depend on the processing

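The count of members at least 2-fold lower stayed at 0 under the 5 scalings, the 4 treatments of low values, the median over probe sets and a threshold of 3-fold; at 1.5-fold it was 1, Timp1. The count at least 2-fold higher was 0 under all 12 alternatives. The members' median ran from -0.11 (equal housekeeping medians) to -0.04 except with a pseudocount and no floor, where it was 0.03 and that of all genes 0.05. All 29 members kept their sign under every alternative that gave them a value, and 274 of 278 such values lay within 0.168 of those reported; the others were Adamts15 (-0.28) and Adamts20 (-0.22) with the pseudocount, and Adamts18, at 0.56 with the floor at the 25th percentile or with none. With the floor at the 75th percentile 17 members remained above it, in place of 29; with no floor Mmp8 was the lowest member at -0.88 and Mmp3 the highest at 0.68, both at signals where values have no order. No paired analysis was possible because each group has 1 array, and no replicate could be left out.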
